A study of Arabidopsis thaliana with 3 samples.

Results

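Auxin response factors (ARFs) are the transcription factors through which auxin acts on genes, and 9 of them were followed here in single lateral root primordium cells of Arabidopsis thaliana. They were taken as a named set from the count table, namely ARF7, ARF19, ARF5, ARF6, ARF8, ARF1, ARF2, ARF10 and ARF16, 9 of the 32833 genes listed and of the 23 genes named ARF. Their values are given for the 322 of 573 plate wells in which at least 500 genes had a read, each taken as 1 cell. The plants were Columbia-0 seedlings, for which the labels name no treatment, harvested 5 days after germination, and all of them carried a nuclear triple mCherry under the HB53 promoter. Protoplasts with mCherry signal were sorted, so the promoter of HB53, a homeodomain-leucine zipper gene, decided which cells entered the plates, and the labels give them as primordium cells of stages I to IV. The labels name 1 group with 3 replicates. Which wells make up which replicate is unknown here, so the wells count as 1 sample and nothing could be tested between samples.

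Without auxin, Aux/IAA proteins bind ARFs on auxin response elements and recruit the corepressor TOPLESS and its relatives. Auxin joins Aux/IAA proteins to the F-box receptors TIR1 and AFB, the Aux/IAA proteins are degraded, and the ARFs are released. ARFs with a glutamine-rich middle region (ARF5, ARF6, ARF7, ARF8 and ARF19) activate transcription in transient assays, whereas ARF1, ARF2, ARF10 and ARF16 act as repressors there. In the root, ARF7 and ARF19 act together downstream of the Aux/IAA protein IAA14 to start lateral roots through LBD16 and related genes, and ARF5, also called MONOPTEROS, acts with the Aux/IAA protein IAA12 in embryo, vascular and primordium patterning.

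The sequences below show what sets the members apart. They are RefSeq sequences of the TAIR10.1 assembly. The first pair are mature microRNAs that pair with some ARF mRNAs, printed 5′ to 3′ with the seed, bases 2 to 8, in capitals. The RefSeq mature sequences of miR160b and miR160c (5p) equal that of miR160a-5p, and miR167b equals miR167a-5p.
miR160a-5p: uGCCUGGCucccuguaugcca
miR167a-5p: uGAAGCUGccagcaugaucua
The next 4 are the stretches of the members' mRNAs that match these microRNAs best, on the sense strand of each gene. Bases exactly complementary to the microRNA are in capitals. G:U pairs are in lower case and count as mismatches here and below.
ARF10: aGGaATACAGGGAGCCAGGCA
ARF16: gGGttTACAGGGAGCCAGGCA
ARF6: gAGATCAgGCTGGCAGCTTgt
ARF8: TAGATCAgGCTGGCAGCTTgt
The last pair are the longest runs of glutamine codons in ARF7 and ARF19, with the unbroken run in capitals and 9 bases of coding sequence on each side in lower case, which hold further single glutamine codons.
ARF7: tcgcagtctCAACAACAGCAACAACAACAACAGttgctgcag
ARF19: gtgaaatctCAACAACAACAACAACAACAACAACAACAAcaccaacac

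The stretch in ARF10 lies in coding exon 2 at chr2:12115741-12115761 (plus strand) with 2 mismatches to miR160a-5p, and that in ARF16 in coding exon 3 at chr4:14704141-14704161 (minus strand) with 3. The stretch in ARF8 lies in coding exon 13 at chr5:14633841-14633861 (plus strand) with 3 mismatches to miR167a-5p, and that in ARF6 in coding exon 13 at chr1:10686478-10686498 (minus strand) with 4. No other member came closer than 7 mismatches to either microRNA. ARF17, which is no member, had a stretch with 1 mismatch to miR160a-5p. A match of letters is a description and does not show that a transcript is cut in these cells.

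Glutamine-rich middle regions are known from the activators, and the annotated coding sequences show them in ARF7, ARF19, ARF6 and ARF8 and less in ARF5. Glutamine made up 15.3% of the codons of ARF7, 12.5% of those of ARF19, 10.4% of those of ARF6, 8.75% of those of ARF8 and 6.98% of those of ARF5. It made up 4.77% in ARF2, 4.66% in ARF1, 3.46% in ARF10 and 2.24% in ARF16, so all 5 activators stood above all 4 repressors. The run in ARF7 spans codons 524 to 531 at chr5:7018774-7018797 (minus strand), and in the densest stretch of 100 codons of ARF7, codons 502 to 601, 59 coded for glutamine. The run in ARF19 spans codons 495 to 504 at chr1:6630319-6630348 (minus strand). The longest run in ARF5 was 2 codons, the same as in ARF2. The densest 100 codons of ARF5 held 16 for glutamine, against 12 in ARF2. The closest proteins among the members were ARF7 and ARF19, with 66.2% of aligned residues identical, followed by ARF6 and ARF8 with 64.4%, ARF10 and ARF16 with 59.6% and ARF1 and ARF2 with 57.6%. No stretch of 150 bases, the read length, was shared between the transcripts of any members, and the longest shared run was 26 bases, in ARF7 and ARF19.

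The 322 cells were read to a median of 245742 reads and 4009 genes, with 8315 to 1459543 reads per cell. They came from 3 flow cells with 2 plates each, holding 102, 96 and 124 cells, and the third was shallower, with a median of 132330 reads against 408532 and 440181. No molecular identifiers are named, so the exact 95% intervals given here cover counting error only. As a check of the labelled cell type, at least 1 of 9 primordium genes was found in 84.2% of cells. LRP1 with 55.9% and PLT3 with 46.6% were found most widely, whereas LBD18 and LBD29 were each found in 0.93%. HB53 itself was found in 11.5% and GATA23, a marker of founder cells, in none (0 of 322 cells, for which 3 counts would be 0.932% and the exact upper limit is 1.14% of cells with a read). At least 1 of 2 cortex markers was found in 5.28% of cells, 1 of 3 epidermis markers in 4.66% and 1 of 2 green tissue genes in 10.2%. A longer list is met more easily, so these shares cannot be compared with that of the 9 primordium genes. The part of such cells in the values below was not tested.

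All 9 ARFs were found, and gene positions below are those of TAIR10.1. Their shares of cells lay between 11.2% for ARF8 and 49.7% for ARF2. A gene counts as found in a cell with at least 1 read. For comparison, 35.6% of all 32833 genes were found in at least 10% of cells, and 23.5% in at least 20%. All 9 passed the minimum of 10 reads in 5 cells used below. Fewer cells with a transcript and less RNA per cell cannot be told apart where the summed level is given.

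**Figure D1:**
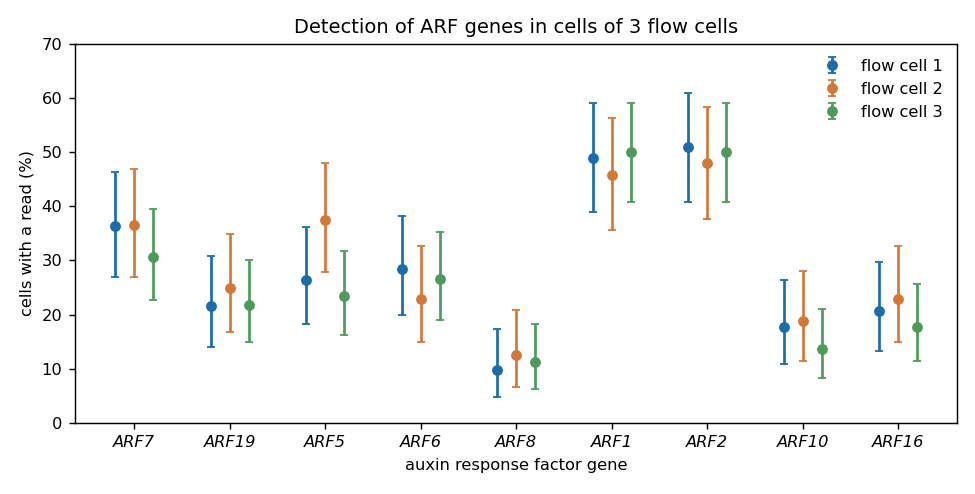
Share of cells with at least 1 read of each ARF, in percent, as points for each of the 3 flow cells, with the exact 95% binomial interval of each flow cell. ARF1 and ARF2 were found in close to 50% of cells on every flow cell, and ARF8 in 9.80% to 12.5%.

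ARF7 (AT5G20730, chr5:7016445-7022179, minus strand), the activator best known from lateral root initiation, was found in 110 of 322 cells, or 34.2% (29.0 to 39.6%). Its share was 36.3% on flow cell 1, 36.5% on flow cell 2 and 30.6% on flow cell 3. ARF19 (AT1G19220, chr1:6627683-6633133, minus strand), its closest relative, was found in 73 cells, or 22.7% (18.2 to 27.6%), with 21.6%, 25% and 21.8% on the 3 flow cells in the same order. The share of ARF7 was above that of ARF19 on each flow cell. The exact intervals did not overlap over all cells and overlapped on each flow cell taken alone. Thinned to 115851 reads per cell, which leaves out 65 shallower cells, the expected shares were 32.9% for ARF7 and 22.3% for ARF19.

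ARF5 (AT1G19850, chr1:6886669-6891404, plus strand) was found in 92 cells, or 28.6% (23.7 to 33.8%), with 26.5%, 37.5% and 23.4% on the 3 flow cells. Its plates differed more than those of ARF7, ranging between 17.7% and 40.0%, against 28.2% to 43.5% for ARF7. ARF6 (AT1G30330, chr1:10685822-10690988, minus strand), known with ARF8 from flower maturation and adventitious rooting, was found in 84 cells, or 26.1% (21.4 to 31.2%), with 28.4%, 22.9% and 26.6%. ARF8 (AT5G37020, chr5:14629453-14634454, plus strand), the rarest member, was found in 36 cells, or 11.2% (7.95 to 15.1%), with 9.80%, 12.5% and 11.3%. The interval of ARF8 lay below those of the other 4 activators.

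Among the repressors, ARF1 (AT1G59750, chr1:21979289-21984433, plus strand) was found in 156 cells, or 48.4% (42.9 to 54.1%), with 49.0%, 45.8% and 50.0% on the 3 flow cells. ARF2 (AT5G62000, chr5:24910191-24915395, plus strand), known with ARF1 for its part in organ senescence and abscission, was found in 160 cells, or 49.7% (44.1 to 55.3%), with 51.0%, 47.9% and 50.0%. The shares of ARF1 and ARF2 could not be told apart at this number of cells. Only 7.08% of all genes were found at least as widely as ARF1.

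ARF10 and ARF16, known from root cap formation and held in check there by miR160, were found less widely. ARF10 (AT2G28350, chr2:12113889-12116957, plus strand) was found in 53 cells, or 16.5% (12.6 to 21%), with 17.6%, 18.8% and 13.7% on the 3 flow cells. ARF16 (AT4G30080, chr4:14703065-14706354, minus strand) was found in 65 cells, or 20.2% (15.9 to 25%), with 20.6%, 22.9% and 17.7%. The share of ARF16 was 5.66% on 1 plate and between 16.1% and 27.5% on the other 5. Thinning took the share of ARF16 to 16.6% and that of ARF10 to 16.3%.

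Summed over cells, scaled by the total reads of the cells to CPM and divided by transcript length, the repressors ARF1 and ARF2 and the activator ARF5 stood above the other members. ARF1 had 42.5 CPM per kb, with 43.9, 44.8 and 33.0 on flow cells 1, 2 and 3. ARF2 had 23.1 CPM per kb, with 28.4, 19.6 and 16.7. ARF5 had 16.2 CPM per kb, with 12.8, 20.5 and 15. The range of ARF1 over the flow cells lay above that of ARF2, whereas those of ARF2 and ARF5 overlapped and ARF5 was above ARF2 on flow cell 2.

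ARF19 and ARF7 came next on this scale. ARF19 had 9.34 CPM per kb, with 6.58, 10.4 and 14.3 on the 3 flow cells, and ARF7 had 8.74, with 7.69, 8.67 and 11.8. ARF7 was above ARF19 on flow cell 1 and below it on the other 2, so their levels were not ordered beyond the spread, although ARF7 was found in more cells. ARF16 had 8.05 (6.04, 10.1 and 8.56 on the 3 flow cells), ARF6 7.20 (6.59, 7.25 and 8.74) and ARF10 6.82 (8.80, 5.39 and 4.87). The ranges of all neighbours from ARF5 down to ARF8 overlapped, although ARF5 was above ARF19 on each flow cell.

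ARF8 was last with 5.11 CPM per kb, with 2.91, 8.57 and 2.77 on flow cells 1, 2 and 3. A single cell held 27.1% of all ARF8 reads, with 517 of its 40167 reads from ARF8 and 734 genes found. That cell lies on flow cell 2, and 5 cells together held 65.5% of the ARF8 reads. ARF1 had 8.31 times the level of ARF8. Without flow cell 2, which holds that cell, the ratio was 14.3, and without flow cell 1, ARF5 came second and ARF10 last. With the mean over cells of CPM in place of the summed reads, ARF8 had 14.5 CPM per kb and came next after ARF5, and ARF10 came last, so the place of ARF8 depends on how cells are combined.

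**Figure D2:**
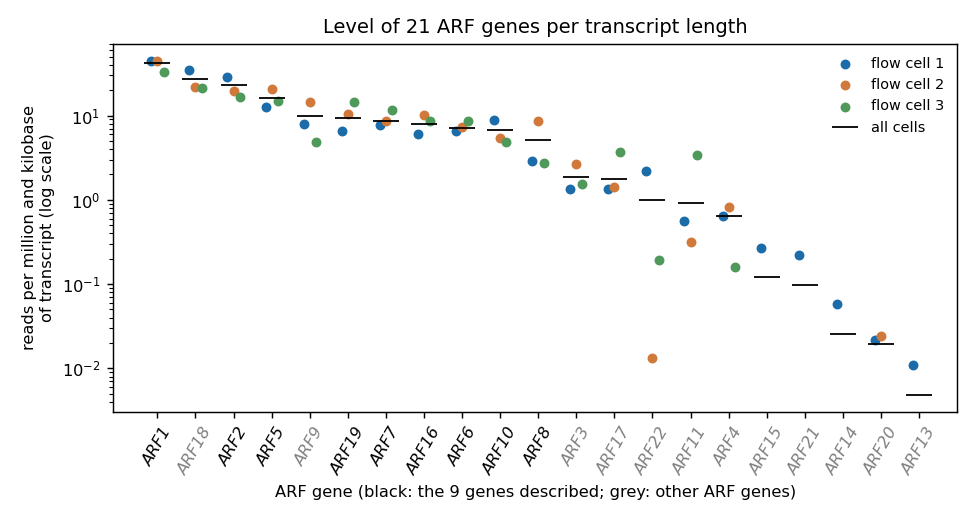
Level of each ARF in CPM per kb of transcript on a log axis, for all cells and for each of the 3 flow cells. Values of 0 are not drawn. ARF1 leads with 42.5, ARF18, which is no member, stands at 27.3, and ARF8 is last among the members with 5.11.

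In the cells where a member was found, ARF5 had the highest median level, 132 CPM, followed by ARF2 with 115, ARF1 with 110 and ARF19 with 90.2. The medians of ARF16, ARF7, ARF10, ARF8 and ARF6 lay between 51.7 and 60.7 CPM. These values are not divided by length, so they describe reads and not transcripts. ARF19 was thus found in fewer cells than ARF7, with more CPM in the cells where it was found.

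**Figure D3:**
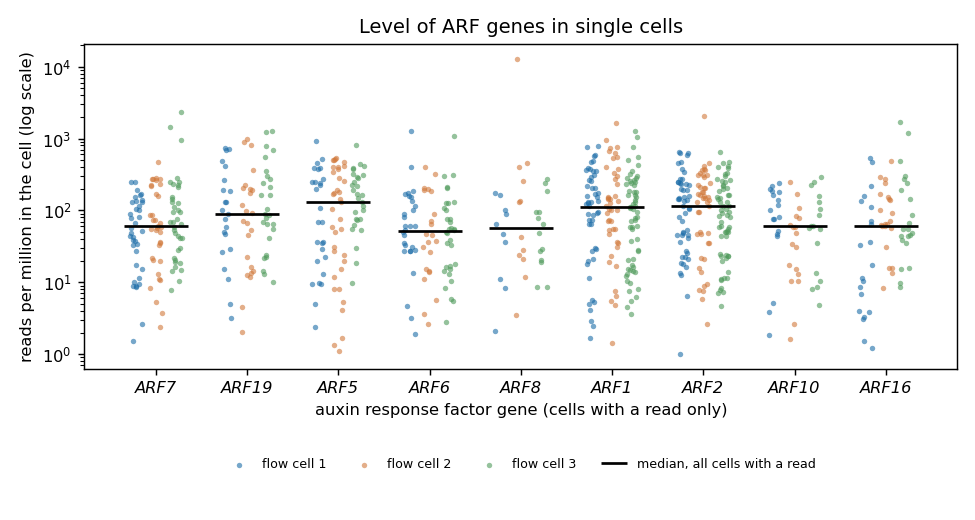
CPM of each ARF in the single cells in which it was found, on a log axis, with the median marked. The cell with 12871 CPM of ARF8 lies apart from the other ARF8 cells, whose gene has a median of 56.4.

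Several ARFs were often found in the same cell. At least 1 member was found in 281 of 322 cells, or 87.3% (83.1 to 90.7%), with a median of 3 members per cell and at most 7. At least 1 activator was found in 217 cells (67.4%) and at least 1 repressor in 243 cells (75.5%). Both kinds were found in 179 cells (55.6%), activators alone in 38 cells (11.8%) and repressors alone in 64 cells (19.9%). The number of members followed the number of genes found. With the cells ordered by their number of genes and cut into 4 groups of 80 or 81, the median number of members was 1, 2, 3 and 4, and 32 of the 41 cells without a member were in the lowest group. ARF2 was found in 18.5% of cells of the lowest group and in 86.4% of those of the highest. A cell without a read of a member therefore gives little information where few genes were found in it.

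The paired finding of 2 members was set against the product of their shares, and a ratio above 1 means that they were found together more often than separate finding would give. Over the 36 pairs the ratio was between 0.832 and 1.65 with a median of 1.24, and it was above 1 in 34 pairs. Cells with more genes hold more of everything, so each pair was also set beside the median ratio of the same ARF with all genes found in at least 10% of cells. Of the 36 pairs, 17 lay above both of these medians and 12 below both. These ratios are descriptions of 1 set of cells, and 22 pairs were above 1 on all 3 flow cells.

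ARF7 and ARF19, which act together in lateral root initiation, were found together in 27 cells, with a ratio of 1.08. The ratio was 1.00, 1.37 and 0.85 on flow cells 1, 2 and 3, and the medians over all genes were 1.26 for ARF7 and 1.16 for ARF19. The ratio of the pair thus lay below both medians. Their levels across cells had a Spearman correlation of 0.04 on average over the flow cells, as a description over cells that share depth.

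ARF5 and ARF7 were found together in 46 cells, with a ratio of 1.46 and with 1.63, 1.37 and 1.35 on the 3 flow cells. ARF7 was found in 50.0% of the cells with ARF5 (39.4 to 60.6%), against 27.8% of the cells without it (22.1 to 34.1%). The medians over all genes were 1.22 for ARF5 and 1.26 for ARF7, and the ratio was 1.49 after thinning. The 2 intervals for ARF7 do not overlap, and cells with both genes had a median of 5627 genes, against 3814 in the other cells.

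ARF10 and ARF16, both with a miR160 stretch, were found together in 17 cells with a ratio of 1.59, and with 1.62, 1.70 and 1.33 on the 3 flow cells, where the medians over all genes were 1.13 and 1.17. ARF6 and ARF8, both with a miR167 stretch, were found together in 13 cells with a ratio of 1.38, where the medians over all genes were 1.21 for ARF6 and 1.38 for ARF8. ARF1 and ARF2 were found together in 98 cells with a ratio of 1.26, where the medians were 1.16 for ARF1 and 1.26 for ARF2. The ratios of these 2 pairs thus differed little from the median of 1 of their genes. The highest ratios were those of ARF5 with ARF8, 1.65 in 17 cells, with 1.89, 1.78 and 1.22 on the flow cells, and of ARF5 with ARF10, 1.65 in 25 cells, with 1.68, 1.63 and 1.51. The medians over all genes were 1.22 for ARF5, 1.38 for ARF8 and 1.13 for ARF10. The ratio of ARF5 with ARF8 lay below the upper quartile of ARF8 with all genes, 1.66. The lowest ratio was that of ARF19 with ARF10, 0.832 in 10 cells, which was 0.52, 0.67 and 1.35 on the flow cells and so differed in direction between them.

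**Figure D4:**
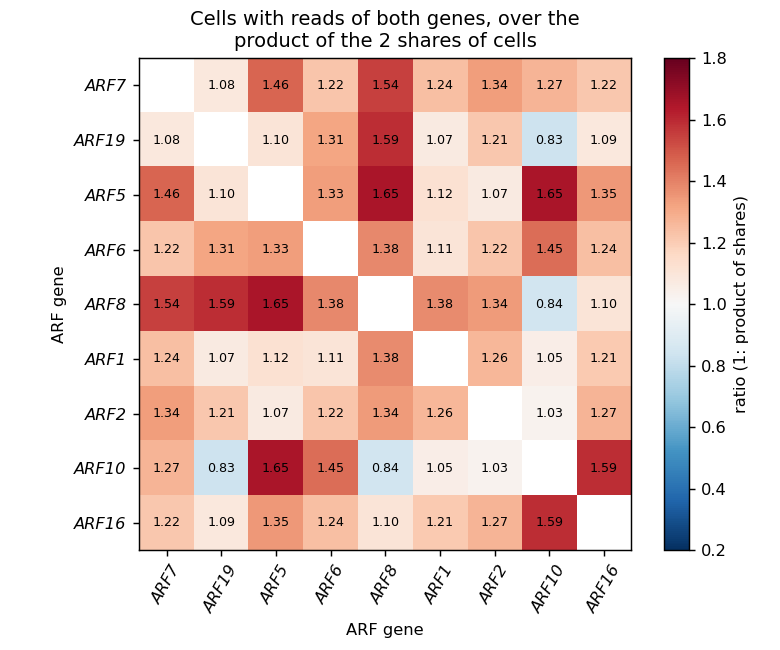
Ratio of the share of cells with both ARFs to the product of the 2 shares, for the 36 pairs. Pairs of ARF5 with ARF7, ARF8 and ARF10 stand high, with 1.46, 1.65 and 1.65, and ARF19 with ARF10 is lowest with 0.832.

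4 of the 9 genes overlap another gene on the chromosome, which matters because the sources used here do not say whether the authors' counting used strand. ARF7 overlaps CPN20, a chloroplast co-chaperonin gene on the opposite strand, over 254 bases. ARF7 was found in 44.4% of the 142 cells with a CPN20 read, against 26.1% of the 180 cells without one, and the cells without one held 44.6% of the ARF7 reads. ARF19 overlaps AT1G19210 on the same strand over 6 bases. ARF19 was found in 57.9% of the 38 cells with a read of AT1G19210, against 18% of the 284 cells without one, and the cells without one held 55.2% of the ARF19 reads. ARF5 overlaps AT1G19860 over 23 bases and ARF1 overlaps MTR4 over 6 bases, both on opposite strands. ARF7 and ARF19 were thus present in many cells where the overlapping gene had no read, and how far reads were shared elsewhere was not tested.

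The cells were then grouped by marker genes of root tissues and of primordium states, to ask in which the ARFs were higher or lower. A cell joined a class with a read of LBD16, of HB53 or PUCHI, of WOX5 or BBM, of TMO5, or of 1 of 4 pericycle markers. For phloem, endodermis and G2 and mitosis a read of at least 2 markers was needed. Classes overlap, and class cells had more genes than the others in all 8 classes, the part of which was not tested. Reads were summed over class cells and over all other cells and compared as a log2 ratio of CPM after scaling. A gene was called where it differed by 2-fold or more and in the same direction on all 3 flow cells. With 1 pooled sample, this is a rule of size and not a test.

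Over 9 members and 8 classes, 2 of the 72 values were called higher (2.78%) and 9 were called lower (12.5%), and 50 values differed in direction between flow cells. Over the 19374 genes measured, between 4.89% and 9.8% were called higher and between 6.78% and 16.5% lower, depending on the class. The members' share called lower thus lay within the range of all genes, and their share called higher below it. The median log2 ratio of the 9 members was 0.33 in LBD16 cells, 0.27 in HB53 or PUCHI cells, -0.65 in WOX5 or BBM cells, 0.14 in TMO5 cells, 0.18 in pericycle cells, -0.53 in phloem cells, -0.35 in endodermis cells and -0.31 in G2 and mitosis cells. The median of all genes lay between -0.26 in phloem cells and -0.0029 in pericycle cells.

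**Figure D5:**
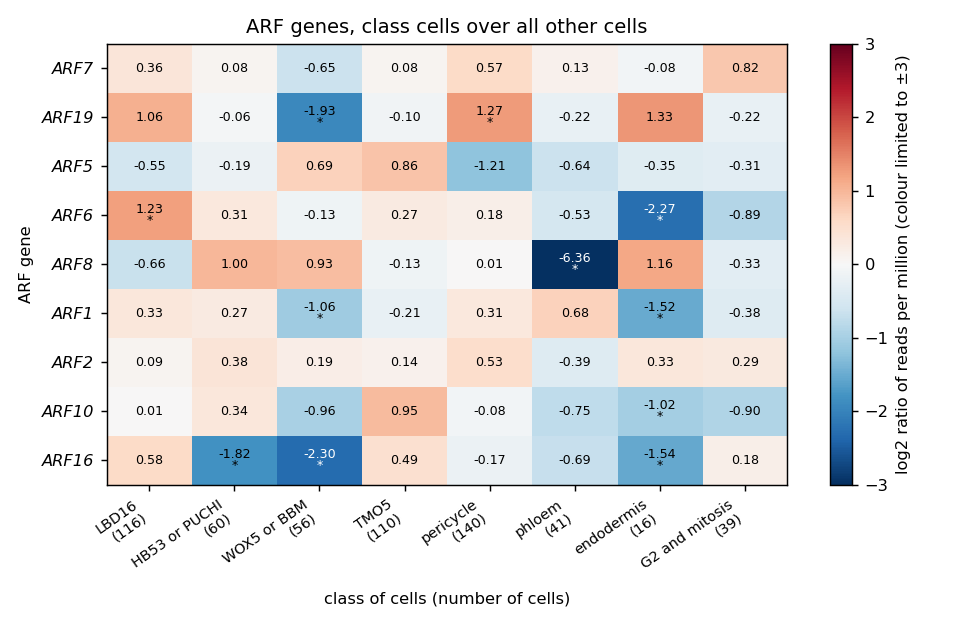
Log2 ratio of summed reads, class cells over other cells, for the 9 ARFs in the 8 classes, with a mark on the values that met the rule. ARF16 and ARF19 are low in WOX5 or BBM cells at -2.30 and -1.93, and ARF6 is high in LBD16 cells at 1.23.

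LBD16 is a direct target of ARF7 and ARF19 that marks the founder cells, and 116 cells had a read of it. Of the 9 members, 1 was called higher and 0 lower, where 4.96% and 6.78% of all genes were. ARF6 had 45.9 CPM in LBD16 cells, against 19.3 in the other cells, a log2 ratio of 1.23. It had 43.3, 44.2 and 56.1 CPM in LBD16 cells on flow cells 1, 2 and 3, against 18.8, 19.0 and 21.8 in the other cells, so the groups did not overlap. ARF6 was found in 31.0% of LBD16 cells (22.8 to 40.3%) and in 23.3% of the others (17.7 to 29.7%). The log2 ratio was 0.99 without the LBD16 cell with most ARF6 reads and 0.72 where LBD16 cells needed 5 reads, which ends the call. LBD16 cells had a median of 4786 genes, against 3746 in the others.

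The other activators of root patterning did not meet the rule in LBD16 cells. ARF19 had 55.5, 64.5 and 60.1 CPM in LBD16 cells on flow cells 1, 2 and 3, against 15.3, 31.5 and 63.1 in the other cells. Its log2 ratio was 1.06 over all cells and -0.15 on flow cell 3, so the flow cells differed in direction. ARF7 had a log2 ratio of 0.36, with 0.80, 0.33 and -0.58 on the 3 flow cells, and ARF5 had -0.55, with 0.03, -1.32 and 0.06. ARF7 was found in 37.9% of LBD16 cells and 32.0% of the others, and ARF19 in 26.7% and 20.4%.

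WOX5 marks the quiescent centre and BBM, also called PLT4, is a PLETHORA factor of stem cell regions, and 56 cells had a read of either. Of the 9 members, 0 were called higher and 3 lower, where 9.8% and 14.3% of all genes were. ARF19 had 13.7 CPM in WOX5 or BBM cells, against 45.7 in the other cells, a log2 ratio of -1.93. It had 5.75, 20.3 and 15.3 CPM in these cells on flow cells 1, 2 and 3, against 32.5, 50.9 and 70.4 in the other cells, and the groups did not overlap. The share of cells with ARF19 was alike, at 21.4% in WOX5 or BBM cells (11.6 to 34.4%) and 22.9% in the others (18 to 28.5%), so the values differed in the reads per cell where it was found.

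ARF16 had 5.37 CPM in WOX5 or BBM cells, against 23.2 in the other cells, a log2 ratio of -2.30. It had 4.49, 5.96 and 5.99 CPM on the 3 flow cells in these cells, against 17.1, 29.9 and 24.4 in the other cells. Its share was 17.9% in WOX5 or BBM cells and 20.7% in the others. ARF16 and ARF19 met the rule under all alternatives run, with log2 ratios of -2.81 to -2.10 for ARF16 and of -2.49 to -1.69 for ARF19. ARF1 had 64.2 CPM in WOX5 or BBM cells, against 118 in the other cells, a log2 ratio of -1.06 that was -0.87 with scaling by total reads and -0.58 without flow cell 2, both short of the rule.

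ARF5, ARF7 and ARF2 were found in more WOX5 or BBM cells than other cells but were not called. ARF5 was found in 46.4% of WOX5 or BBM cells and 24.8% of the others (47.4% and 26.1% after thinning), with a log2 ratio of 0.69. ARF7 was found in 53.6% of WOX5 or BBM cells and 30.1% of the others (47.3% and 29.7% after thinning), and ARF2 in 73.2% and 44.7% (68.9% and 45.9%). For ARF7 the log2 ratio of summed reads was -0.65, so share and level pointed in different directions and no order is read from them. WOX5 or BBM cells had a median of 6057 genes, against 3788 in the others.

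HB53, whose promoter drove the sorted reporter, and PUCHI, an AP2 factor of primordium boundaries, gave a class of 60 cells. Of the 9 members, 0 were called higher and 1 lower, where 5.54% and 11.1% of all genes were. ARF16 had 7.07 CPM in HB53 or PUCHI cells, against 23.4 in the other cells, a log2 ratio of -1.82. It had 3.08, 13.0 and 8.34 CPM in these cells on the 3 flow cells, against 18.7, 27.7 and 25 in the others. ARF16 was found in 18.3% of HB53 or PUCHI cells and 20.6% of the others, and it met the rule under all 10 alternatives run. This class shares 16 of its cells with WOX5 or BBM cells, so the low values of ARF16 in the 2 classes rest in part on the same cells.

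TMO5, a target of ARF5 in the young vascular tissue, had a read in 110 cells. None of the 9 members was called, where 5.17% of all genes were called higher and 8.03% lower. ARF5 had 83.4 CPM in TMO5 cells, against 45 in the other cells, a log2 ratio of 0.86. The ratio was 0.65, 0.93 and 1.35 on flow cells 1, 2 and 3, and ARF5 was found in 40.0% of TMO5 cells and 22.6% of the others. After thinning these shares were 44.6% and 22.0%. ARF5 was thus higher in TMO5 cells on each flow cell, but over all cells by less than the 2-fold the rule asks for. ARF10 had a log2 ratio of 0.95, with 0.85, 1.44 and -0.28 on the 3 flow cells. It was found in 24.5% of TMO5 cells and 12.3% of the others. The shares of ARF16, ARF1, ARF2, ARF6 and ARF19 were also larger in TMO5 cells, whereas those of ARF7 and ARF8 were not. TMO5 cells had a median of 4688 genes, against 3759 in the others.

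Pericycle markers (NPF7.3, PHO1, SKOR and XPP) put 140 cells in a class, and 1 member was called higher and 0 lower, where 6.77% and 7.57% of all genes were. ARF19 had 57.1 CPM in pericycle cells, against 24.6 in the other cells, a log2 ratio of 1.27. It had 43.7, 48.7 and 113 CPM in pericycle cells on the 3 flow cells, against 16.7, 40.9 and 13.0 in the others, and the groups did not overlap. ARF19 was found in 30.7% of pericycle cells (23.2 to 39.1%) and in 16.5% of the others (11.4 to 22.7%), and after thinning these shares were 30.6% and 14.5%. Without flow cell 3 the log2 ratio was 0.83 and without flow cell 2 it was 2.03. Without the pericycle cell with most ARF19 reads it was 1.04 and the flow cells no longer shared a direction. Over the cells without a read of AT1G19210, the overlapping gene, it was 0.49.

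The remaining classes rest on few cells or few reads. Among 41 phloem cells 0 members were called higher and 1 lower, where 4.89% and 16.5% of all genes were. ARF8 had 4 reads in 1 of the 41 phloem cells, against 1902 reads in 35 of the 281 other cells. That is 2.44% of phloem cells (0.06 to 12.9%) and 12.5% of the others (8.83 to 16.9%), and these intervals overlap. Among 39 G2 and mitosis cells no member was called, where 5.42% and 11.6% of all genes were called higher and lower. ARF7 was found in 56.4% of G2 and mitosis cells and 31.1% of the others (46.7% and 30.8% after thinning), with a log2 ratio of 0.82, and these cells had a median of 5646 genes, against 3852.

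Endodermis markers (SCR, the CASP genes and others) were found in 16 cells, in which 0 members were called higher and 4 lower, where 6.03% and 14.1% of all genes were. ARF6 had 28 reads in 3 of the 16 endodermis cells, 6.34 CPM, against 30.2 in the other cells, a log2 ratio of -2.27. The log2 ratio was -1.52 for ARF1, -1.54 for ARF16 and -1.02 for ARF10, where a single cell held 93.0% of the ARF10 reads of the class. Leaving out flow cell 1 gave -4.21 for ARF6, -3.53 for ARF10 and -0.92 for ARF16. Without flow cell 2, ARF16 stood at -2.91 and ARF10 at -0.73, and without flow cell 3 ARF10 stood at -0.83. The call of ARF10 was thus lost without flow cell 2 or 3, and that of ARF16 without flow cell 1.

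The rest of the auxin pathway was found widely in the same cells. Of the 14 other ARFs 2 were found in at least 10% of cells, ARF18 in 24.8% and ARF9 in 18%, while ARF12 and ARF23 had no read. ARF18, a repressor by its sequence class, had 27.3 CPM per kb and stood between ARF1 and ARF2. ARF3, known in leaf polarity and held in check by small RNAs from TAS3, was found in 6.21%. Of the 29 Aux/IAA genes 18 were found in at least 10% of cells, led by IAA2 with 91.9%, IAA9 with 89.4% and IAA16 with 86.0%. All 6 receptor genes were found in at least 10% of cells, AFB4 in 56.2% and TIR1 in 45%, and so were all 5 TOPLESS genes, TPL in 54.0%.

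Of the known ARF7 and ARF19 targets, LBD16 was found in 36% of cells, LBD33 in 10.9% and PUCHI in 9.01%. Of the known ARF5 targets, TMO6 was found in 56.5%, TMO5 in 34.2% and HB8 in 24.8%. The precursor genes of the small RNAs were found in few cells. MIR160c had 184 reads in 21 cells, MIR167b had 174 reads in 19 cells and TAS3 had 142 reads in 21 cells. At least 1 of the 8 small RNA loci was found in 21.1% of cells. These reads count precursors and do not measure the mature microRNAs.

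Pathway genes were also followed over the classes by the same rule. In LBD16 cells ARF9 was called higher with a log2 ratio of 1.31, and ARF3, ARF4 and ARF22 (with 94.8% of its reads in 1 cell) were called lower. Of the 24 Aux/IAA genes measured IAA14 alone was called there, higher with 1.41, and the ARF5 target HB8 was called lower with -1.05. The shares of all genes in LBD16 cells were 4.96% called higher and 6.78% called lower. In WOX5 or BBM cells 4 of 24 Aux/IAA genes were called lower, IAA2 with -1.49, IAA10 with -1.78, IAA18 with -2.37 and IAA28 with -1.67, where 14.3% of all genes were. Of the 6 receptor genes AFB1 and AFB5 were called higher there, with 2.44 and 1.03, and AFB4 lower with -1.83. The share of all genes called higher in WOX5 or BBM cells was 9.8%. ARF4 with 2.12 and the ARF5 target TMO7 with 4.88 were called higher in the same cells. Both rest on few cells. ARF4 had 222 reads in 11 of the 322 cells, 90.5% of them in 5 cells. Its log2 ratio was 3.89, 0.51 and 0.43 on flow cells 1, 2 and 3. TMO7 had 198 reads in 17 cells, and its log2 ratio was 3.82, 7.11 and 5.65.

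In pericycle cells ARF9, IAA26 and TPR1 were called higher, with 1.40, 1.32 and 1.08, and IAA4, IAA12, IAA32 and TMO7 lower, with -1.77, -1.20, -1.93 and -2.59. The shares of all genes in pericycle cells were 6.77% called higher and 7.57% called lower. In HB53 or PUCHI cells IAA34 and AFB1 were called higher and 4 of 24 Aux/IAA genes and TMO6 lower. Of all genes, 5.54% were called higher in HB53 or PUCHI cells and 11.1% lower. In phloem cells 3 of 24 Aux/IAA genes (IAA12, IAA26 and IAA34), TIR1, TPR4, PUCHI and TMO6 were called higher, and LBD33, TMO5 and TMO7 lower. There, 4.89% of all genes were called higher and 16.5% lower. In G2 and mitosis cells IAA12 and IAA34 were called higher and 3 of 24 Aux/IAA genes lower. The shares of all genes in these cells were 5.42% called higher and 11.6% called lower. In the 16 endodermis cells 8 of 24 Aux/IAA genes and the ARF5 targets TMO5, TMO6 and HB8 were called lower. ARF3, ARF17, LBD33, TPR2 and TPR4 were also called lower there, where 14.1% of all genes were. IAA34 and TPR1 were called higher with 2.02 and 1.16, where 6.03% of all genes were. IAA34 had 17 reads in 5 cells, near the minimum of 10 reads in 5 cells, so its calls in the classes above rest on few reads. A group of cells without a read stands at 3 counts, so a class without a read of IAA34 can come out higher. IAA34 was found in only 0.81% to 3.13% of the cells of a flow cell. Phloem and endodermis cells shared 0 cells, but both came out higher on flow cells 1 and 3 (3.95 and 5.69, 4.39 and 5.82). The calls of IAA34 thus rest in part on this floor and are not read as a result. None of the genes named here was called in TMO5 cells.

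The genes whose levels across cells were most like those of the 3 activators of root patterning were named by a rule of rank, from 11682 genes found in at least 10% of cells. The measure was the Spearman correlation of log2(CPM + 1) within each flow cell, averaged over the 3, and cells share depth. For ARF19 they were AT2G42760 with 0.42, RRTF1 with 0.40 and DDF1 with 0.38, where the median over all genes was 0.05. RRTF1 and DDF1 are AP2/ERF transcription factors. Over the cells without a read of AT1G19210, which overlaps ARF19, these values were 0.36, 0.30 and 0.32. For ARF7 they were DL1, a dynamin-like protein, with 0.36, DSK2 with 0.34 and ATSTE24 with 0.33, where the median was 0.11. For ARF5 they were AT4G32285 with 0.33, PWP2 with 0.32 and CYP87A2 with 0.31, where the median was 0.09. The correlation of ARF5 with ARF7 was 0.20.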

How the data were processed

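Each protoplast was sequenced on its own, with single-end 150 bp reads per the labels. The authors deposited raw counts (32833 genes by 573 wells, all whole numbers) and a text file with the flow cell, plate and position of each well. TAIR10 is named as the build in the submitters' processing notes. How reads were aligned and counted, whether by strand, and how doublets were treated is not stated in these sources. No doublet caller was run because each column is 1 plate well.

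Wells with 500 or more genes with a read were kept as cells. Shares carry exact binomial (Clopper-Pearson) and summed reads exact Poisson 95% intervals. A gene without a read stands at a floor of 3 counts, over the group. Transcript lengths, positions and sequences came from the RefSeq annotation of TAIR10.1, in which 32548 gene IDs matched, and lengths are of the longest transcript. Expected shares at equal depth used hypergeometric thinning to 115851 reads, the percentile 20 of cell totals, which leaves 257 cells. For classes, reads were summed over cells and scaled by the trimmed mean of M values (30% of M, 5% of A). A gene was measured with 10 reads in 5 cells, and called with a ratio of 2-fold in the same direction on all 3 flow cells. From the pathway lists of a class, its own marker genes were left out. They stayed among the 19374 genes measured in each class. Likeness used log2(CPM + 1) of cells, computed from the deposited counts. The planned edgeR and DESeq2 fits were not run, since the wells cannot be assigned to replicates, and no p-value was computed. Computation used numpy 2.4.6, pandas 2.3.3, scipy 1.17.1 and biopython 1.88.

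All 9 members are named, beside them up to 3 genes of each pathway list found in most cells, list genes called in a class (1 list gene is not reported here), genes that overlap a member, and the 3 genes most like ARF7, ARF19 and ARF5 with a positive correlation on every flow cell. Other genes named (ARF17, ARF3, the small RNA loci) were chosen after their values were seen. The members, lists and classes were chosen with earlier results of these data known. Alternatives covered the gene minimum, reads that count as found, depth, scaling, length, marker reads and leaving out each flow cell. Some were added after seeing the data. For called class ratios, the class cell or the other cell with most reads of the member was left out. For ARF19, cells without a read of AT1G19210 were used. Levels without the cell with most reads of the gene were planned.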

Additional observations from a re-analysis of the deposited data

Results flagged for a closer look

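ARF1 had 9 reads in the 251 wells below the gene minimum, in 2 of them, which are not used in any comparison above. ARF5 had 2 reads there in 2 wells, ARF7 and ARF6 had 1 read each, and the other 5 members had none. These wells hold no control sample, and the 9 reads stand above the 3 counts that a count of 0 allows.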

How the results depend on the processing

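Of 182 alternative values of the main results, 137 moved by less than their counting interval or by less than 1.5 times for counts, and 45 moved. These values have no sign. Among the levels per kb and the log2 ratios in classes, 352 alternative values stayed within their counting interval and 320 moved. Of the log2 ratios in classes, the 11 that were called kept their sign under all 112 alternatives run. The 61 that were not called changed sign under 65 of 488, and 4 of these then met the rule as lower: ARF10 in HB53 or PUCHI cells with -1.82 without flow cell 1 (main value 0.34), ARF8 in WOX5 or BBM cells with -1.66 with the mean of CPM (0.93), and, without flow cell 2, ARF8 in endodermis cells with -2.37 (1.16) and ARF16 in G2 and mitosis cells with -2.66 (0.18). With every well that had a read in place of the 322 cells, shares were 19.4% for ARF7, 12.7% for ARF19, 16.4% for ARF5, 14.8% for ARF6, 6.28% for ARF8, 27.6% for ARF1, 27.9% for ARF2, 9.25% for ARF10 and 11.3% for ARF16, since 251 wells with few genes enter the denominator. Asking for 5 reads gave 27.3% for ARF7, 18% for ARF19, 18.9% for ARF6, 38.2% for ARF1, 41.3% for ARF2 and 14.6% for ARF16, and asking for 2 reads gave 42.5% for ARF1. Asking for 5 reads of both genes left 2.80% of cells for ARF10 with ARF16, 21.1% for ARF1 with ARF2 and 10.6% for ARF5 with ARF7. The ratio of the highest to the lowest member level (ARF1 over ARF8) was 7.37 with the mean of CPM over cells, where ARF10 was lowest, 7.45 per coding length, 11.4 in cells with 1000 genes and 10.9 without the cell with most reads of each gene. It was 7.90 to 14.3 without 1 flow cell, the lower value without flow cell 1, with ARF10 lowest, and the upper without flow cell 2.

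The shares of all genes called were computed for the main setting only. The counts of members called under other settings have no such share beside them and are not read as a result. Where a class needed 5 marker reads, members called were 0 in LBD16 cells and 1 in TMO5 cells (ARF10). They were 3 in phloem cells and 2 in endodermis cells. With the mean of CPM, 2 were called in phloem cells and 1 in G2 and mitosis cells. Leaving out 1 flow cell gave 1 to 2 in LBD16 cells, 1 to 3 in HB53 or PUCHI cells, 2 to 5 in WOX5 or BBM cells, 0 to 1 in TMO5 cells, 1 to 2 in pericycle cells, 1 to 3 in phloem cells, 3 to 5 in endodermis cells and 0 to 3 in G2 and mitosis cells, partly because 2 flow cells share a direction more easily than 3. Of the 11 calls, ARF16 in HB53 or PUCHI and in WOX5 or BBM cells, ARF19 in WOX5 or BBM cells, ARF6 in endodermis cells and ARF8 in phloem cells met the rule under all alternatives run. ARF1 in WOX5 or BBM cells met it under 6 of 10 and ARF10 in endodermis cells under 5 of 10. The cause of these losses was not tested. Of the 3 genes most like each activator, 2 to 3 stayed among the first 3 for ARF19, 1 to 2 for ARF7 and 0 to 2 for ARF5 without 1 flow cell.

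No paired analysis was possible because the wells carry no replicate number and the labels give 1 group. Without molecular identifiers or replicates, intervals cover counting error only, and a count of 0 in a cell is not absence.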
